A study of Mus musculus with 12 samples.

Results

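Spc25, Spc24, Ndc80 and Nuf2 encode the 4 subunits of the NDC80 complex, and their reads were compared with each other over the 12 retinal libraries of the series. The genes were taken from the deposited count table by symbol, and all 4 were found among its 35976 symbols, of which 24484 had at least 1 read. Spc25 was chosen because its reads were high and lower in oxygen-induced retinopathy (OIR), so its own values in the comparisons between groups are given as a description, with no test. The partners were chosen by membership of the complex and not by their values, and they were tested.

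The NDC80 complex is the part of the kinetochore, the protein assembly on each centromere, that grips the spindle microtubules when a cell divides. Ndc80 and Nuf2 form the arm that binds the microtubule, and Spc24 and Spc25 form the opposite end, which docks on the inner kinetochore through the MIS12 complex. The subunits work as a unit in dividing cells. In the mouse retina the birth of neurons is largely over before the eyes open, whereas in OIR the vessels that grow back after the oxygen phase hold dividing endothelial cells.

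Retinal RNA was sequenced from the 3' end of polyadenylated transcripts (QuantSeq) in 4 groups of 3 libraries. WT normoxia was retina of C57BL/6 pups kept in 21% oxygen and taken at postnatal day 15. WT OIR was retina of C57BL/6 pups of the same age, after 75% oxygen from postnatal day 7 to postnatal day 12 and 3 days in room air. The Casp1 KO normoxia and Casp1 KO OIR groups were retina of mice labelled as knockouts of Casp1, the gene of the inflammatory protease caspase-1, and the labels put the OIR samples 3 days after OIR. Their age, their oxygen level, their strain and the way the gene was deleted are not given in the sources used here, nor is the number of pups in a library. Nothing says that the libraries of a group came from separate animals, so p-values measure the spread between these libraries, which may be technical.

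Casp1 itself did not follow the labels. The 6 libraries labelled WT held 7 Casp1 reads in all, with 0 to 2 per library in normoxia and 0 to 3 in OIR, and the 6 libraries labelled Casp1 KO held 126, with 10 to 45 and 16 to 22. A 3' tag outside a deleted part would not check the label, and where the tags lie relative to that part is not known here. Whether the genotype labels are exchanged was not tested. If they are, every direction between the genotypes given here, that of the interaction included, would turn, so the groups are called by their labels only, whereas the comparisons of OIR with normoxia would keep their direction and change only their genotype name. The total count of a library ran from 3391203 to 22815830, and WT normoxia replicate 2 was the deepest, at 4.03 times the total of the library after it. Of 58 marker genes of 8 retinal cell types, 0 were without reads in the series and 2 were at 0 in at least 1 library.

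The reads of a gene in such libraries come from near its 3' end, so the annotated ends of the 4 members are shown. Each line gives the last 30 bases of a coding transcript that ends at the annotated end of the gene (GENCODE vM21 transcripts, GRCm38), with the signal for cleavage and polyadenylation, AATAAA or ATTAAA, in capitals.
Spc25 (Spc25-201): tgtgttAATAAActtgcttgttgtctccca
Spc24 (Spc24-201): actcacatacATTAAATAAAtactcttttt
Ndc80 (Ndc80-201): acagttAATAAAgtatacttgtaaagtgtg
Nuf2 (Nuf2-202): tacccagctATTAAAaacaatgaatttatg
In Spc24 the letters of both signals overlap, and together they read ATTAAATAAA. Of 58793 annotated coding transcripts with at least 30 bases, 44.1% held AATAAA or ATTAAA in this window, read on the transcribed strand only. All 4 members therefore had an annotated 3' end with such letters, those with few reads as well as Spc25.

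Spc25 lies on chromosome 2 from 69193895 to 69206194 on the minus strand of GRCm38, the build of the mm10 alignment, and 0 annotated genes overlap it. Its 9 annotated transcripts include 4 that end within 1 base of the gene's end, among them Spc25-201 with 7 exons, whose last exon of 651 bases carries the end of the coding part and 529 bases after it. Spc24 lies on chromosome 9 from 21755442 to 21760303, Nuf2 on chromosome 1 from 169497934 to 169531464 and Ndc80 on chromosome 17 from 71496100 to 71526857, all on the minus strand. A small predicted gene, Gm23115, lies within Ndc80 on the same strand, so reads where they overlap may not be told apart.

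**Figure D1:**
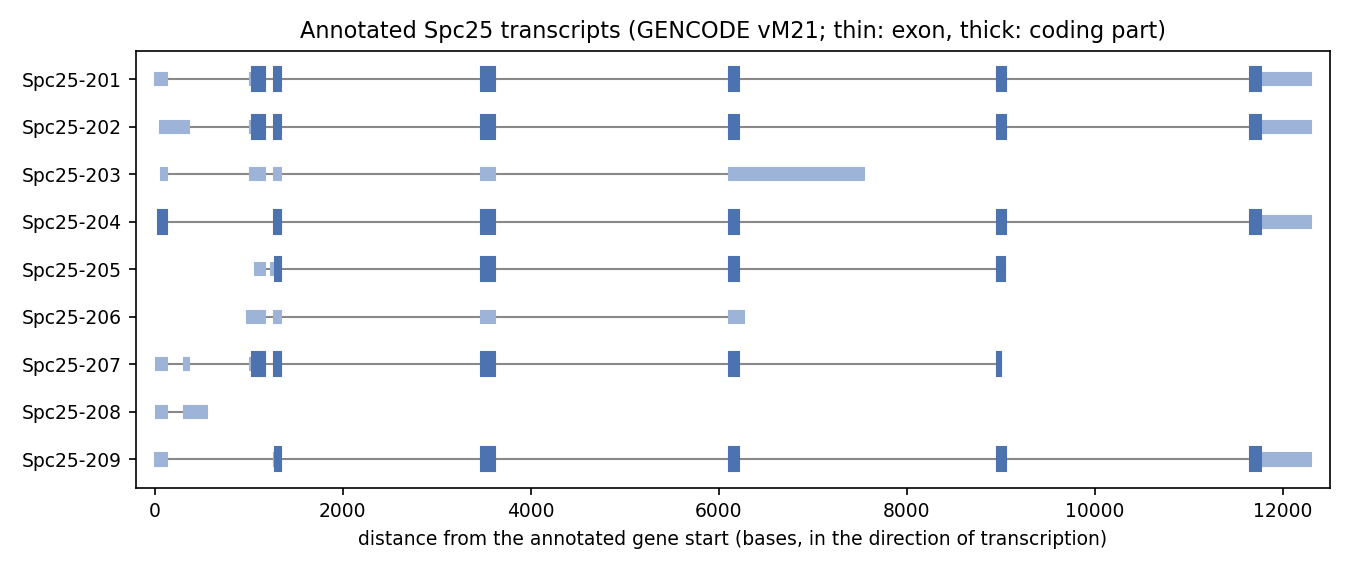
The 9 annotated transcripts of Spc25, drawn by distance in bases from the annotated gene start in the direction of transcription, with thin boxes for exons and thick boxes for their coding parts. Of these transcripts, 4 end within 1 base of the gene's end, in a last exon that is 651 bases long in Spc25-201.

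The genes next to Spc25 held few reads. Nostrin, on the opposite strand with its nearest end 4565 bases beyond the 3' end of Spc25, held 10 to 57 reads in a library, and G6pc2, which begins 4879 bases upstream on the opposite strand, was at 0 reads in every library. Abcb11, further upstream, held 0 to 61 reads, and Cers6, on the far side of Nostrin, 30 to 222. Gm13613 was the other annotated gene within 100 kb and is not listed in the count table. Nostrin, Abcb11 and Cers6 did not pass the test in any of the 6 comparisons (edgeR quasi-likelihood, smallest adjusted p = 0.487, for Nostrin between the OIR groups). The reads of Spc25 thus stood apart from those of the genes around it.

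The stretch before the start of Spc25 is shown because promoters of many genes used in mitosis carry a CCAAT box and, near the start, the letters TTTGAA of the cell cycle homology region. The 100 bases before the RefSeq start of Spc25 (GRCm38.p6, chr2:69206214-69206313, minus strand) follow, with CCAAT in capitals. Below it are 30 bases of Spc25 (chr2:69206172-69206201, minus strand) and of Ndc80 (chr17:71526811-71526840, minus strand) just after their starts, with TTTGAA, or its reverse complement TTCAAA, in capitals.
Spc25 before the start: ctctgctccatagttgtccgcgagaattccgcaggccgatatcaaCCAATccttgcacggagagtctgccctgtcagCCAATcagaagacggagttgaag
Spc25 after the start: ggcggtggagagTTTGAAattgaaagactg
Ndc80 after the start: gaaactttaaaaTTCAAAccgccttgggtt
Counted from the start, CCAAT of Spc25 begins at positions -55 and -23 and TTTGAA at position 25, and the letters in Ndc80 begin at position 30. These motifs were searched on both strands in the RefSeq windows from 250 bases before to 50 bases after each start, and in Spc25 the letters of one do not overlap those of the other. The window of Ndc80 held no CCAAT and that of Nuf2 neither motif, and Spc24 has no entry. Of 32851 windows, 37.4% held CCAAT, 17.9% held TTTGAA and 6.95% held both. A match describes letters and is not a measured binding site.

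Spc25 was read far more often than its partners in every library. Over the 12 libraries it had 16753 reads, against 34 for Spc24, 38 for Ndc80 and 34 for Nuf2, which makes 99.4% of the reads of the 4 genes. The share ran from 95.3% (exact binomial 95% interval 93.0 to 97.1) in WT OIR replicate 1 to 100% (99.5 to 100) in Casp1 KO normoxia replicate 2. Per kilobase of the longest annotated transcript the share was 97.5% to 100% over the libraries. Intervals and limits here cover counting error only. A partner never exceeded 13 reads in a library, and 13 of the 36 values of the partners were 0.

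By rank of reads among the listed genes, Spc25 stood between place 472 and place 489 in the libraries labelled WT normoxia and between 1905 and 2921 in those labelled WT OIR. In the libraries labelled Casp1 KO it stood between 761 and 914 in normoxia and between 1679 and 2289 in OIR. The partners ranked at place 12475 or below in each library. The ranks put Spc25 among the well-read genes of the retina and its partners near the limit of detection.

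Counts were scaled to library size (CPM, with TMM factors). The libraries labelled WT normoxia held 324, 340 and 333 CPM of Spc25, and those labelled WT OIR 110.2, 109.7 and 72.9. The libraries labelled Casp1 KO normoxia held 218, 230.4 and 203 CPM, and those labelled Casp1 KO OIR 127, 93.9 and 100.2. Under either label every OIR library was lower than every normoxia library, and WT OIR replicate 3 was the lowest of the series. The order of the group means was WT normoxia with 332 ± 7.90 CPM (SD, n = 3), Casp1 KO normoxia with 217 ± 13.5, Casp1 KO OIR with 107 ± 17.3 and WT OIR with 97.6 ± 21.4. The OIR groups overlapped each other, and the other neighbours in that order did not.

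**Figure D2:**
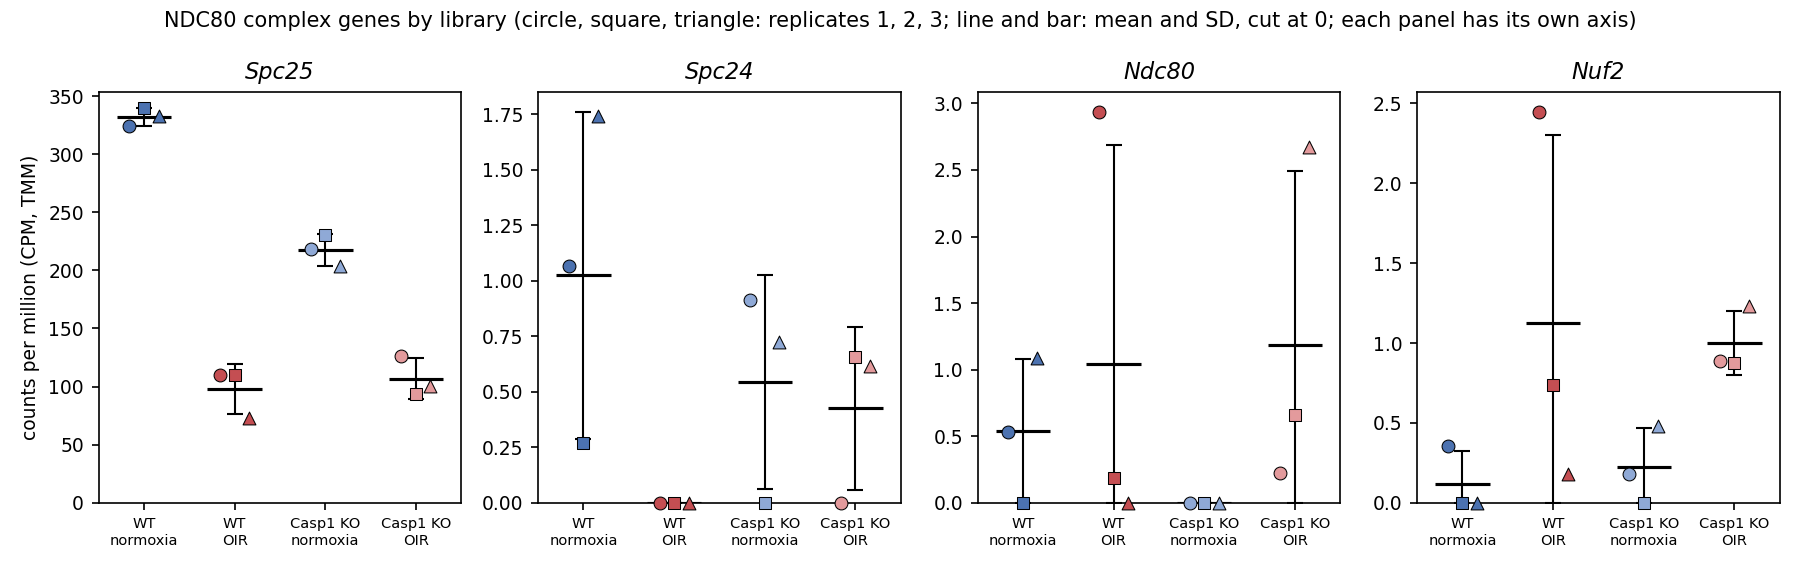
CPM of Spc25, Spc24, Ndc80 and Nuf2 in each of the 12 libraries (points, with shapes for the replicate numbers), with the mean and SD of each group of 3, error bars cut at 0 and an axis of its own for each gene. Spc25 lies between 72.9 and 340 CPM, and the partners lie below 3 CPM, with 13 of their 36 values at 0.

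In the libraries labelled WT, the mean of Spc25 in OIR was 3.40-fold lower than in normoxia (log2 fold change -1.78, standard error 0.137), and in those labelled Casp1 KO it was 2.03-fold lower (-1.01, standard error 0.103). For comparison, the groups did not overlap and OIR was lower for 8.16% of the genes in the WT comparison and 8.58% in the Casp1 KO comparison. Without WT OIR replicate 3 the change in the WT libraries was -1.60. In normoxia the libraries labelled Casp1 KO were 1.53-fold lower than those labelled WT (log2 fold change -0.61, standard error 0.0854), where 6.53% of all genes were lower without overlap. In OIR the difference between the labels was 0.13 (standard error 0.151), and it turned to -0.027 without WT OIR replicate 3. These 4 comparisons share groups with each other, and Spc25 was chosen for this pattern, so nothing is tested in them. In whole retina, fewer cells that hold a transcript and less of it in each cell cannot be told apart.

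Spc24, which pairs with Spc25 in the inner end of the complex, had 6, 6 and 8 reads in the libraries labelled WT normoxia and 0 in each labelled WT OIR. The libraries labelled Casp1 KO held 5, 0 and 3 reads in normoxia and 0, 3 and 3 in OIR. The groups labelled WT did not overlap, with OIR lower, as for 8.16% of all genes, and those labelled Casp1 KO did. Pooled over 3 libraries each, WT OIR was at least 3.02-fold lower than WT normoxia, taking the 3 reads that a count of 0 allows over the group, and the ratio of OIR to normoxia in the Casp1 KO libraries was 0.703 (exact 95% interval 0.201 to 2.31). Leaving out 1 library at a time moved the bound in the WT libraries to between 1.88 (without WT OIR replicate 3) and 6.82 (without WT normoxia replicate 2), with 1.96 without WT OIR replicate 2, and the ratio in the Casp1 KO libraries to between 0.520 and 1.08 (without Casp1 KO normoxia replicate 1). Neither passed the edgeR test (adjusted p = 0.312 and 0.952), which 3.88% of all genes passed in the WT libraries and 4.64% in the Casp1 KO libraries. The exact permutation test, two-sided, gave p = 0.1 in the WT libraries, the smallest it can give with 3 against 3, and 0.6 in the Casp1 KO libraries.

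Ndc80, the subunit after which the complex is named, had 3, 0 and 5 reads in the libraries labelled WT normoxia and 12, 1 and 0 in those labelled WT OIR. It was at 0 in each library labelled Casp1 KO normoxia and had 1, 3 and 13 reads in Casp1 KO OIR. Most of its OIR reads came from WT OIR replicate 1 and Casp1 KO OIR replicate 3. The pooled ratio of OIR to normoxia was 3.59 (exact 95% interval 1.38 to 9.99) in the WT libraries, and in the Casp1 KO libraries OIR was at least 5.31-fold higher. The WT ratio rests on single libraries: it was 1.11 (0.427 to 3.10) without WT normoxia replicate 2, the deepest library, with 0 reads of Ndc80, 0.378 (0.00853 to 2.82) without WT OIR replicate 1 and 8.23 (2.26 to 45.1) without WT normoxia replicate 3. The bound in the Casp1 KO libraries was 1.92 without Casp1 KO OIR replicate 3 and 3.06 without Casp1 KO normoxia replicate 1. The Casp1 KO groups did not overlap, with OIR higher, as for 8.56% of all genes, and the WT groups did. The adjusted p of the edgeR test was 0.846 and 0.202, and the exact permutation test gave p = 0.9 and 0.1.

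Nuf2, the partner of Ndc80 in the microtubule-binding arm, had 2, 0 and 0 reads in the libraries labelled WT normoxia and 10, 4 and 1 in those labelled WT OIR. In the libraries labelled Casp1 KO it had 1, 0 and 2 reads in normoxia and 4, 4 and 6 in OIR. The Casp1 KO groups did not overlap, with OIR higher, which held for 8.56% of all genes in that comparison. The pooled ratio of OIR to normoxia was 16.6 (exact 95% interval 3.85 to 149) in the WT libraries and 4.37 (1.22 to 23.7) in the Casp1 KO libraries, and the adjusted p of the edgeR test was 0.563 and 0.651. The WT ratio was 5.13 (1.19 to 46.3) without WT normoxia replicate 2, 7.57 (1.24 to 79.5) without WT OIR replicate 1 and at least 9.16 without WT normoxia replicate 1, which leaves normoxia at 0 reads. The Casp1 KO ratio ran from 3.24 (0.903 to 17.6), without Casp1 KO normoxia replicate 2, to 8.96 (1.36 to 379), without Casp1 KO normoxia replicate 3. The exact permutation test gave p = 0.2 and 0.1.

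When the genotypes were fitted together, with a term for genotype, the log2 fold change of OIR over normoxia was -2.25 (standard error 1.54) for Spc24, 2.52 (1.36) for Ndc80 and 2.60 (1.35) for Nuf2. None of the 3 partners passed the edgeR test (adjusted p = 0.533, 0.400 and 0.371), where 4.89% of the 24484 genes tested did. At an unadjusted p under 0.05, 0 of the 3 passed there as well (0.145, 0.0645 and 0.0548, edgeR), where 14.2% of all genes did. The exact permutation of libraries within genotype, over 400 arrangements with a smallest p of 0.005, gave p = 0.09 for Spc24, 0.27 for Ndc80 and 0.01 for Nuf2, unadjusted. That permutation was run on the 3 partners alone, so the share of all genes with as small a p is not known. Nuf2 did not pass the fit across all genes. In the same model Spc25 changed by -1.40 (standard error 0.0931). The OIR effect of the partners did not pass the test of a difference between the genotypes (adjusted p = 0.562 for Spc24, 0.584 for Ndc80 and 0.9998 for Nuf2), which 1.13% of all genes passed. Between the genotypes, 0 of the 3 partners passed either in normoxia, where 1.04% of all genes did, or in OIR, where 0.575% did.

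The deepest library held fewer reads of the partners than its depth would give, and not of Spc25. WT normoxia replicate 2, the deepest library, would hold 7469 reads of Spc25 at the rate of the other 2 libraries of its group, and it held 7634. At that rate it would hold 31.2 reads of Spc24, 17.8 of Ndc80 and 4.45 of Nuf2, and it held 6, 0 and 0. Despite its depth it detected 17975 genes, against 18021 in WT normoxia replicate 1 and 17372 in WT normoxia replicate 3. Whether the shortfall is particular to the partners, and why the library holds fewer of their reads, was not tested.

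The other kinetochore and cell cycle genes were read from lists of 9 groups, which leave 82 genes with at least 1 read when Spc25 is set aside. In OIR over both genotypes, 4 of them passed the test, 3 higher and 1 lower, or 4.88%, against 4.89% of all genes (2.32% higher and 2.57% lower). That share is near the background. The median log2 fold change of the 82 was 0.37, against 0.02 for all genes, and it is the same with the 2 genes that had 0 reads in 1 condition set at their bound. In the WT libraries 4 rose and 1 fell (background 1.58% higher and 2.29% lower), and in the Casp1 KO libraries 2 rose and 1 fell (2.61% and 2.03%). Between the genotypes 0 of 80 passed in normoxia (1.04% of all genes) and 0 of 82 in OIR (0.575%), which is near those shares. In the test of the interaction 0 of 82 passed (1.13% of all genes). There 3 of the 82 and 9.77% of all genes had an unadjusted p under 0.05.

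**Figure D3:**
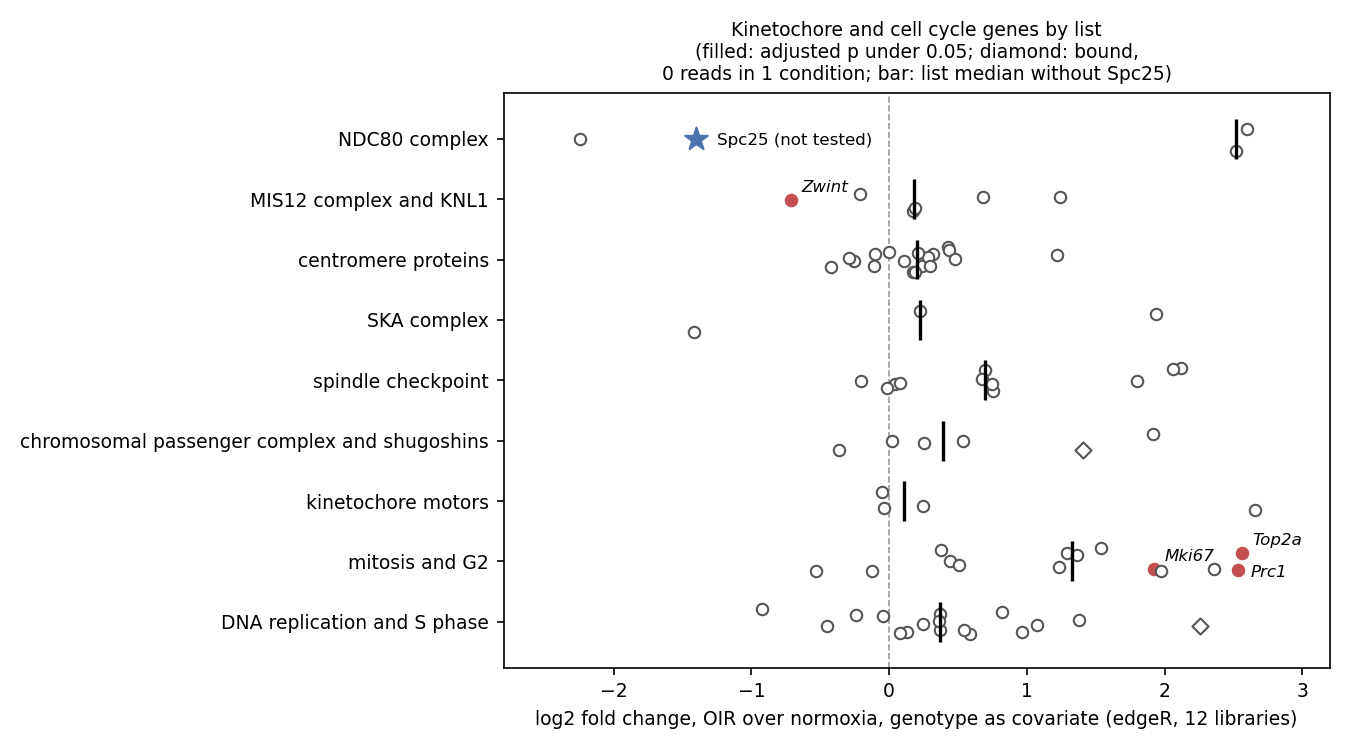
Log2 fold change of OIR over normoxia for 82 kinetochore and cell cycle genes, fitted over 12 libraries with a term for genotype, by list (rows), with filled points for an adjusted p under 0.05, diamonds for genes set at a bound and bars for the list medians without Spc25. Zwint is the filled point below 0, Mki67, Top2a and Prc1 are those above 0, and Spc25, shown as a star and not tested, lies at -1.40.

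The MIS12 complex and KNL1, onto which the Spc24 and Spc25 end docks, held the one list gene that fell. Zwint, which binds KNL1 and helps to bring the checkpoint complex RZZ to the kinetochore, lies on chromosome 10 from 72654845 to 72674964 with 0 overlapping genes. It was the most read of the 82 genes, with 11222 reads. It had 227, 141 and 189.6 CPM in the libraries labelled WT normoxia and 100.4, 113 and 104 in WT OIR. The libraries labelled Casp1 KO held 189, 186 and 211 CPM in normoxia and 131, 115 and 134 in OIR. Under both labels every OIR library was lower than every normoxia library, as for 8.16% of all genes (WT) and 8.58% (Casp1 KO). Its log2 change was -0.82 (SE 0.141, adjusted p = 1.38e-06, edgeR) in the WT libraries, -0.61 (0.102, adjusted p = 3.11e-07) in the Casp1 KO libraries and -0.72 (0.0941, adjusted p = 8.80e-12) over both. Between the genotypes in normoxia, where the Spc25 groups did not overlap, Zwint changed by 0.09 (standard error 0.0941, adjusted p = 0.761).

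The other 5 genes of that list did not pass the test over both genotypes. Mis12, the subunit that names the MIS12 complex, had 27.5 ± 2.37 CPM (SD, n = 3) in WT normoxia and 29.8 ± 4.20 in WT OIR. Under the label Casp1 KO it had 24.5 ± 3.42 in normoxia and 28.8 ± 4.83 in OIR, a log2 fold change of 0.17 over both (standard error 0.161, adjusted p = 0.643, edgeR). Pmf1 had 1143 reads in all, and the KNL1 gene, listed as Casc5, had 212. Dsn1 and Nsl1 had 32 and 27 reads, about as few as Spc24, Ndc80 and Nuf2.

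The mitosis and G2 list had the highest median of the lists outside the NDC80 complex, 1.33 on the log2 scale over 14 tested genes of 15, with 12 fitted higher in OIR and 2 lower. Of these, 3 passed, all higher, where 2.32% of all genes passed higher. Top2a, the topoisomerase that untangles chromosomes, had 0.533, 2.45 and 0.870 CPM in the libraries labelled WT normoxia and 21.6, 19.7 and 3.27 in WT OIR. Under the label Casp1 KO it had 3.10, 2.90 and 1.45 CPM in normoxia and 10.5, 7.88 and 6.79 in OIR. Its groups did not overlap under either label, as for 8.53% of all genes (WT, higher) and 8.56% (Casp1 KO, higher), and it rose by 2.56 on the log2 scale over both (standard error 0.357, adjusted p = 1.86e-10, edgeR). A predicted gene, Gm23451, lies within Top2a on its strand, so reads where they overlap may not be told apart.

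Prc1, which bundles the microtubules of the spindle midzone, rose by 2.54 over both genotypes (standard error 0.494, adjusted p = 2.51e-05, edgeR), from 1.47 ± 0.160 CPM (SD, n = 3) to 7.10 ± 3.18 in the WT libraries and from 0.682 ± 0.473 to 5.27 ± 1.24 in the Casp1 KO libraries. Mki67, the gene of the proliferation marker Ki-67, rose by 1.92 over both (standard error 0.470, adjusted p = 0.00192). It went from 1.36 ± 1.32 to 8.69 ± 3.62 CPM in the WT libraries, and from 1.58 ± 1.64 to 3.56 ± 2.53 in the Casp1 KO libraries, where the groups overlapped and the test was not passed (adjusted p = 0.525). Plk1, a mitotic kinase and the most read gene of the list, changed by -0.12 (adjusted p = 0.882). Rccd1 and 6330403N20Rik overlap Prc1 on the opposite strand, as does Gm45240 for Mki67, and the strand setting of the counting is not given, so their reads may not be told apart.

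**Figure D4:**
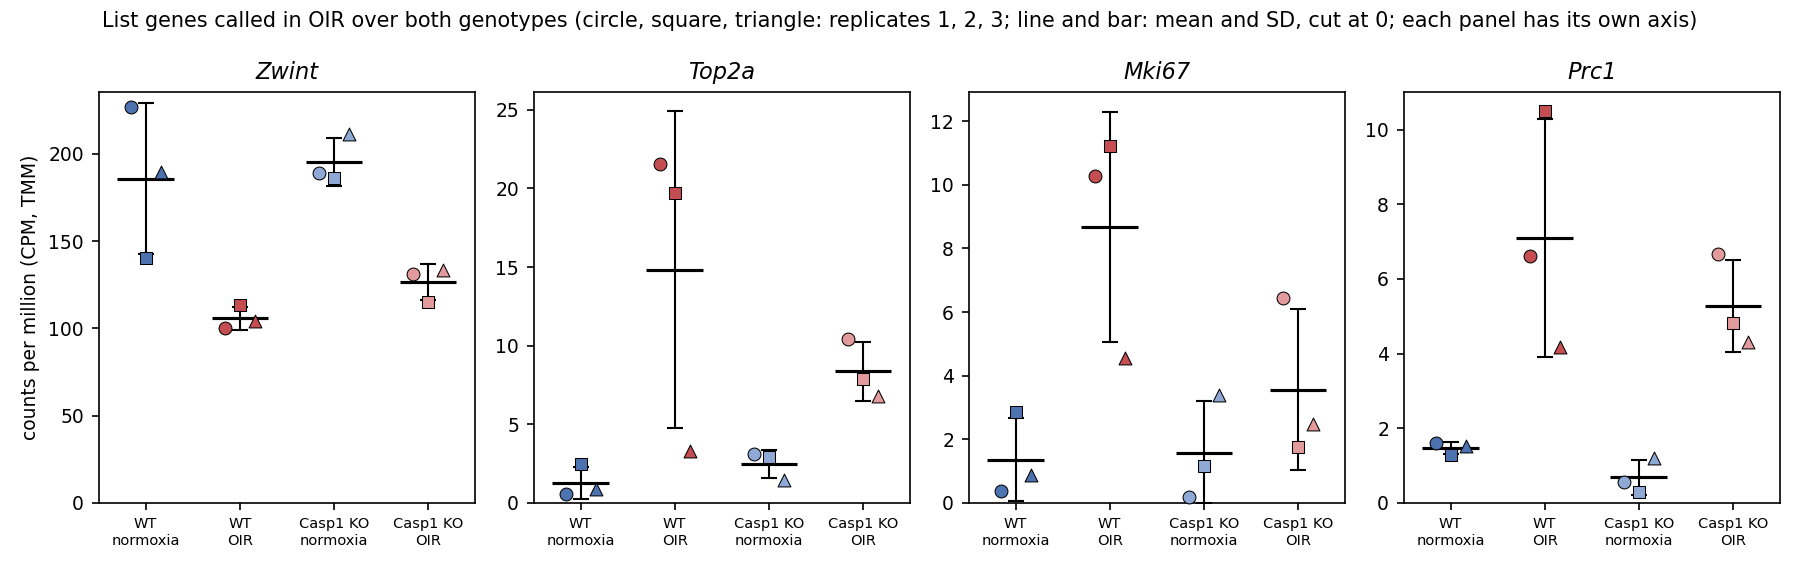
CPM of Zwint, Top2a, Mki67 and Prc1 in each of the 12 libraries (points, with shapes for the replicate numbers), with the mean and SD of each group of 3, error bars cut at 0 and an axis of its own for each gene. Zwint is lower in OIR under both labels (141 CPM in the lowest WT normoxia library and 113 in the highest WT OIR library), and WT OIR replicate 3 is the lowest WT OIR library for the other 3 genes.

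The remaining lists held few or no calls. Over both genotypes 4.89% of all genes passed, and at that share lists of this size would hold few or none. Of the spindle checkpoint genes, Bub1b rose in the WT libraries, from 4.41 ± 2.67 to 10.9 ± 2.26 CPM (SD, n = 3; log2 fold change 1.40, standard error 0.432, adjusted p = 0.0350, edgeR), and changed by -0.03 in the Casp1 KO libraries (adjusted p = 0.988). The difference between those changes did not pass the test (adjusted p = 0.373). Over both genotypes 0 of 11 checkpoint genes passed, with a median of 0.69. The most read checkpoint gene, Bub3, changed by 0.04 (adjusted p = 0.913), and Zw10 by -0.21 (adjusted p = 0.624).

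Of the 18 centromere proteins, on which the kinetochore is built, 0 passed, against 4.89% of all genes, with a median of 0.20. Cenpb, which binds a repeat of centromeric DNA, changed by 0.24 (adjusted p = 0.356, edgeR) and Cenpc1, which links the centromere to the MIS12 complex, by -0.25 (adjusted p = 0.392). None of the 3 genes of the SKA complex, which helps the NDC80 complex to hold microtubules, passed either. Ska2 had 10.1 ± 1.34 CPM (SD, n = 3) in WT normoxia and 13.8 ± 2.79 in WT OIR, and 9.34 ± 2.30 and 9.0 ± 2.11 under the label Casp1 KO. Ska3 stayed below 1 CPM in the mean of every group.

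Calls were also 0 of 6 for the chromosomal passenger complex and shugoshins, which correct and protect chromosome attachments (median 0.39). They were 0 of 4 for the kinetochore motors (median 0.11) and 0 of 17 for DNA replication and S phase (median 0.37). With 4.89% of all genes called, counts of 0 are near the background for these lists. Among their most read genes were Incenp, the scaffold of the passenger complex (0.25, adjusted p = 0.458, edgeR), the motor Cenpe (-0.04, adjusted p = 0.953), Kif18a (0.25, adjusted p = 0.698), the nucleotide-making enzyme Rrm1 (0.13, adjusted p = 0.738) and the helicase subunit Mcm7 (0.36, adjusted p = 0.245). Sgol2a, a shugoshin, changed by 0.02 (adjusted p = 0.989). Cenpb, Ska2, Incenp, Rrm1 and Mcm7 overlap another annotated gene on the same strand.

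Genes whose level followed that of Spc25 were sought among the 9427 other genes with a mean of at least 10 CPM. Over the 12 libraries, the highest Pearson correlation of log2 CPM with Spc25 was that of Chd3, a chromatin remodeller (r = 0.990). It was followed by Lsamp, a neuronal adhesion protein (0.977), Kif5c, a kinesin of neurons (0.976), Kcnj9, a potassium channel (0.969), and Ndn, necdin (0.964). Rph3a, a synaptic vesicle protein (0.961), Cartpt, a neuropeptide precursor (0.960), Spock2, a proteoglycan (0.959), Map7d2, a microtubule-associated protein (0.958), and Myo5a, a vesicle motor (0.955), completed the 10. The points share 4 groups and their library depths, so these values describe the likeness and are not tests. The 10 hold 0 genes of the kinetochore and cell cycle lists and 0 of the marker lists. Zwint ranked 328 with r = 0.812, and its correlation with Spc25 after the group means were subtracted was 0.01.

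**Figure D5:**
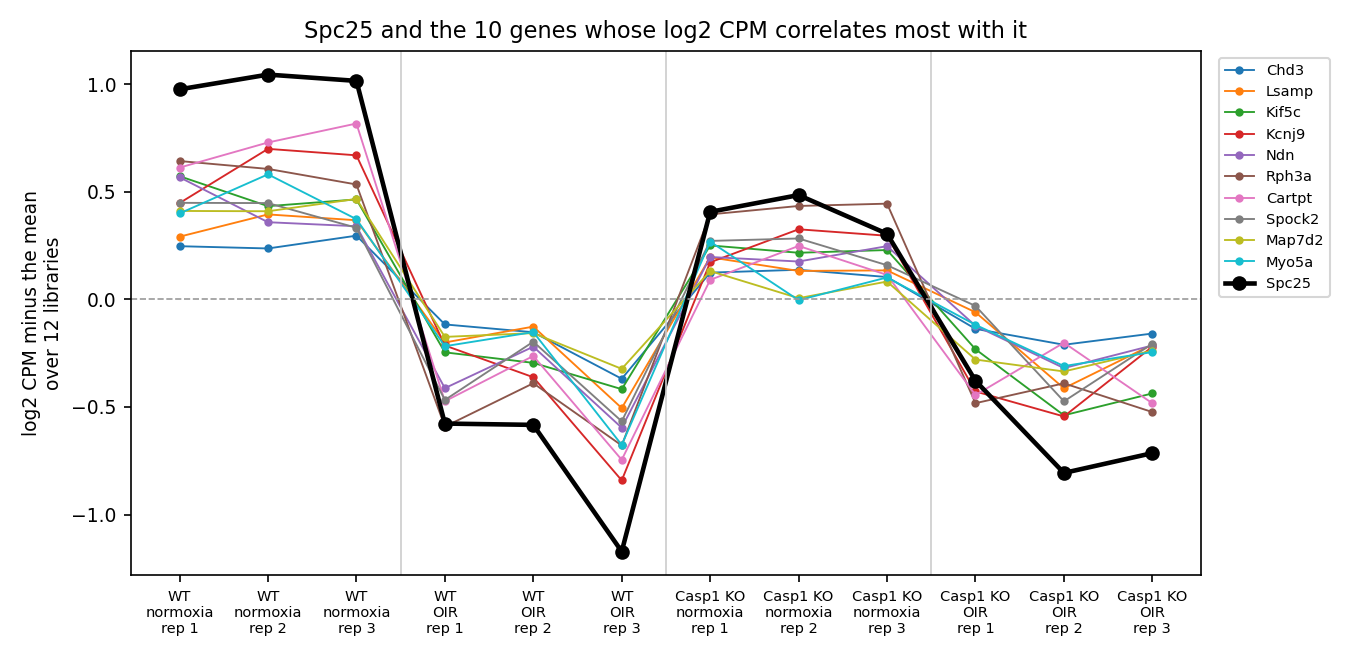
Log2 CPM of Spc25 (black) and of the 10 genes most like it, each minus its own mean over the 12 libraries, in library order by group. The lines are above 0 in the normoxia libraries, except that of Myo5a in Casp1 KO normoxia replicate 2, and below 0 in the OIR libraries, and Spc25 spans the widest range, from 1.04 to -1.17.

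The likest genes changed less than Spc25. Chd3 had 289 ± 6.39 CPM (SD, n = 3) in WT normoxia and 209 ± 19.3 in WT OIR, and under the label Casp1 KO 263 ± 3.10 in normoxia and 215 ± 5.63 in OIR. Its log2 fold change of OIR over normoxia was -0.48 in the WT libraries and -0.28 in the Casp1 KO libraries. Cartpt changed most of the 10 in the WT libraries, by -1.22, and by -0.51 in the Casp1 KO libraries. After the group means were subtracted, the highest correlations were those of Ccar1 (0.982), Rps6ka4 (0.963), Apobec2 (0.956), Ccdc39 (0.954) and Cdh22 (0.945). These are other genes than the 10, whose correlations after that step ran from 0.397 (Rph3a) to 0.915 (Lsamp), with 0.895 for Chd3. Ccar1, at 253.8 CPM in WT normoxia and 253.7 in WT OIR, did not share the difference in the WT libraries.

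Markers of other cell types moved with the conditions as well. In the counts of markers that follow, fell and rose mean an adjusted p under 0.05 (edgeR). Of 6 retinal ganglion cell markers, Nefl, Pou4f1, Slc17a6, Sncg and Thy1 fell in the WT libraries (5 of 6, background 2.29%), and 4 of 6 fell in the Casp1 KO libraries (background 2.03%). Their summed level was 1981 to 2175 CPM in WT normoxia and 1037 to 1291 in WT OIR, and 2186 to 2365 in Casp1 KO normoxia and 1281 to 1318 in Casp1 KO OIR. Over the same 12 libraries, the correlation with Spc25 ran from 0.404 (Rbpms) to 0.918 (Nefl, the neurofilament light chain) among these 6. Rod markers ran from -0.958 (Nr2e3) to 0.876 (Pde6b, a rod phosphodiesterase), and cone markers from -0.771 (Pde6h) to 0.877 (Arr3, cone arrestin). The 51 marker genes with a mean of at least 10 CPM ran from -0.958 to 0.918. Arr3 fell under both labels (log2 change -0.62 and -0.59), the 1 of 8 cone markers to fall in each comparison. Of those 8, 0 rose in the WT libraries and 3 rose in the Casp1 KO libraries (background 2.61% higher). Of the 12 rod markers, 1 rose and 1 fell in the WT libraries, and 5 rose and 1 fell in the Casp1 KO libraries. C1qa, a complement gene, was the 1 of 6 microglia markers that passed under both labels, higher in OIR (1.07 and 1.65). Of these 6, 5 were fitted higher and 1 lower in each comparison. Of the 6 amacrine cell markers, 4 fell in the WT libraries (from 565 to 611 CPM summed, to 364 to 454) and 0 in the Casp1 KO libraries (429 to 484, and 464 to 516). The 6 Muller glia markers gave 3 that fell in the WT libraries (2038 to 2192 CPM summed, and 1442 to 1493) and 4 that rose in the Casp1 KO libraries (1464 to 1596, and 1970 to 2045). For the amacrine and Muller glia markers the background was 2.29% lower in the WT libraries. In the Casp1 KO libraries it was 2.03% lower and 2.61% higher. Of the 6 endothelial markers, all 6 were fitted higher in OIR in the WT libraries, and Pecam1 alone passed (background 1.58% higher). The summed level of the 6 was 86.5 to 101 CPM in WT normoxia and 102 to 158 in WT OIR. In the Casp1 KO libraries 0 of them passed (98.8 to 113 CPM summed, and 103 to 125). The part of any of these in the levels of Spc25 was not tested.

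WT OIR replicate 3 stood apart from the other 2 libraries of its group for both kinds of gene. It had the lowest Spc25 of the series, and the summed level of the mitosis and G2 genes was 34.0 CPM in it against 81.8 and 88.7 in the others. Without it the count of list genes that rose over both genotypes was 5 in place of 3, with Cdk1 and Mcm3 added, and Zwint remained the one that fell. Zwint also fell, and Top2a, Prc1 and Mki67 also rose, when any other single library was left out.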

How the data were processed

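The authors extracted RNA with TRIzol, made QuantSeq FWD 3' libraries and sequenced single reads of 75 bases. The deposited values are raw counts of reads per gene symbol, made by the authors with STAR 2.7.5a on mm10 and HTSeq 0.6.1, per the submitters' processing notes. Which annotation and strand setting were used, and how multi-mapping reads were counted, is not given in the sources used here. Entries that name no gene numbered 0. Replicates were not pooled.

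The members and gene lists were chosen with earlier results of these data known. Counts were fitted in R 4.3.3 with edgeR 4.0.16 (TMM, glmQLFit and glmQLFTest, genes with at least 1 count, Benjamini-Hochberg over all genes, threshold 0.05), each pair of groups on its own 6 libraries, and the effect over both genotypes and the interaction on all 12. With a prior count of 0.125, a standard error is the fold change over the root of the F statistic. CPM used TMM library sizes, and log2 CPM for correlations a prior count of 2. The fits were tested on simulated data, where changes were set only in genes with more reads than the partners. That run does not tell how well a change in a partner would be found. Total counts ran from 3391203 to 22815830, and 3 reads, the limit that a count of 0 allows, equal 0.131 to 0.885 CPM. Partners were also compared by exact permutation of CPM.

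Named genes were the members, list genes with an adjusted p under 0.05 over both genotypes, the 2 most read genes of each list, the 10 and 5 genes most like Spc25, and genes overlapping a member or within 100 kb of Spc25. Bub1b, Cdk1, Mcm3, Pmf1, Casc5, Dsn1, Nsl1 and the cell type markers were named after their values were seen. Positions and transcripts come from GENCODE vM21, and promoters from RefSeq (GRCm38.p6), where 3 of the 4 members had an entry. Alternatives were DESeq2 1.42.0 or its size factors, library size alone, filterByExpr, the likelihood ratio test, the replicate number as a block, a larger prior count (2), 1 fit to 12 libraries and leaving out each library (for the pooled ratios, chosen after seeing the data). The result of 1 gene is not reported here.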

Additional observations from a re-analysis of the deposited data

Results flagged for a closer look

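In 6 of 57 marker genes, where 1.13% of all genes passed, the OIR effect differed between the libraries labelled Casp1 KO and those labelled WT by the edgeR interaction test. In log2 units, Casp1 KO minus WT, the differences were 1.09 for Glul (adjusted p = 2.01e-12), 0.99 for Rlbp1 (1.43e-07) and 0.76 for Dkk3 (0.000344) of the Muller glia markers. They were 1.16 for Gad2 (0.0184), 0.77 for Gad1 (0.0214) and 0.58 for Tfap2b (0.0304) of the amacrine markers. Each was lower in OIR in the WT libraries, and all but Gad1 were fitted higher in OIR in the Casp1 KO libraries (Glul -0.70 and 0.41, Gad1 -0.89 and -0.09). Of the 82 kinetochore and cell cycle genes 0 passed, which is near that share. The sign of each difference rests on the genotype labels, which the Casp1 reads went against.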

How the results depend on the processing

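The log2 fold change of Spc25 between OIR and normoxia kept its direction in every alternative run, from -1.88 to -1.60 in the WT libraries and from -1.16 to -0.94 in the Casp1 KO libraries, and that between genotypes in normoxia ran from -0.65 to -0.56. Between genotypes in OIR it ran from -0.027, without WT OIR replicate 3, to 0.23. The partners passed the threshold in no alternative that gave an adjusted p. Directions reversed, with adjusted p in brackets, for Ndc80 in the WT libraries without WT OIR replicate 1 (0.808, all 6 left-out fits 0.747 to 0.959), for Spc24 in the Casp1 KO libraries without Casp1 KO normoxia replicate 1 (0.984) or Casp1 KO OIR replicate 1 (0.977, all 0.884 to 0.986), for Ndc80 between genotypes in OIR without WT OIR replicate 2 (0.973), WT OIR replicate 3 (0.934) or Casp1 KO OIR replicate 3 (0.875, all 0.869 to 0.973), and for Nuf2 there without WT OIR replicate 1 (0.900, all 0.866 to 0.996) or with the replicate block (0.993), and for its interaction without WT OIR replicate 1 (0.9999, all 12 0.718 to 0.99996). List genes that rose over both genotypes numbered 3 to 5, with 5 (Birc5 and Cdk1 added) under DESeq2.

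Genes called in WT OIR numbered 886, 586 with filterByExpr and 545 to 1130 with 1 library left out (545, 580 and 581 without WT normoxia replicates 1, 2 and 3). In Casp1 KO OIR they numbered 1038, 642 in 1 fit to 12 libraries and 704 to 866 with 1 left out. Between genotypes in normoxia they numbered 233, 444 with DESeq2, 148 with the likelihood ratio test, 109 in 1 fit to 12 and 128 to 199 with 1 left out (fewest without Casp1 KO normoxia replicates 3 and 2, with 128 and 143). Between genotypes in OIR they numbered 131, 16 with filterByExpr, 82 with DESeq2, 54 with the likelihood ratio test, 255 in 1 fit to 12 and 47 to 815 with 1 left out (815 without WT OIR replicate 3, 47 without WT OIR replicate 2, and 72, 59 and 72 without Casp1 KO OIR replicates 1, 2 and 3). The interaction gave 277, 139 with filterByExpr, 181 with the likelihood ratio test and 174 to 597 with 1 left out (597 and 174 without WT OIR replicates 3 and 2, 184 without Casp1 KO normoxia replicate 1). OIR over both genotypes gave 968 to 1217. The cause of these shifts was not tested. The replicate numbers did not pair the libraries: of 18 same-numbered pairs, 1 had deviations that correlated above 0.1 (range -0.06 to 0.23), and the replicate block kept each count of calls within 1.5 times. With 36 partner values of at most 13 reads, depth limits what can be said of the partners.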
